A study of Mus musculus with 12 samples.

Results

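The genes of the coagulation and plasminogen system examined here were F3, F7, F10, F13a1, Thbd, Procr, Plau, Plaur and Serpinb2, 9 of the 43131 genes in a count table of bone marrow-derived macrophages (BMDMs). They were taken by name, as members of this system, and each was represented by its transcript with the highest total count. The BMDMs came from C57BL/6 mice that carried floxed tlr4 (tlr4f/f) or floxed tlr4 together with Cre in the lysM (Lyz2) locus (tlr4f/f-lysM-cre), and were differentiated from marrow in DMEM/F12 with FBS and M-CSF (50 ng/mL) over 7 days. Each genotype was left without LPS or given 1 µg/mL of LPS, the bacterial lipopolysaccharide that TLR4 recognises, for 6 h. There were 4 groups of 3 libraries, and the floxed allele was common to all of them. Cre from this locus acts in myeloid cells and its deletion need not be complete. The labels do not say whether the libraries of a group came from separate mice, so p-values measure only the spread between these libraries.

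Clotting begins when tissue factor (F3) on a cell surface binds factor VII (F7) and activates factor X (F10), which leads to thrombin, fibrin and the cross-linking of fibrin by factor XIII, whose A subunit is F13a1. Thrombomodulin (Thbd) and the endothelial protein C receptor (Procr) turn thrombin towards the activation of protein C, an anticoagulant. Urokinase (Plau) on its receptor (Plaur) converts plasminogen to plasmin, which degrades fibrin and matrix, and plasminogen activator inhibitor 2 (Serpinb2) blocks urokinase. Macrophages make most of these proteins themselves, and fibrin deposition with inflammatory macrophages is a known feature of crescentic glomerulonephritis.

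Column headings supply the group names, although the targeted gene went against them. Tlr4 was at 76.7 to 147 CPM, read counts scaled to library size with TMM factors, in the LPS- tlr4f/f libraries and 95.1 to 117 CPM in the LPS- tlr4f/f-lysM-cre libraries. It was at 24.3 to 31.1 CPM in the LPS+ tlr4f/f and 24.6 to 27.5 CPM in the LPS+ tlr4f/f-lysM-cre libraries, so that it was low by the LPS heading and not by the genotype. Lyz2, the locus that carries Cre, was at 5950 CPM or more in every LPS- library and at 75.6 CPM or less in every LPS+ library. Il1b, an early LPS-induced cytokine gene, was at 1640 CPM or more in all 6 libraries headed tlr4f/f-lysM-cre and at 6.93 CPM or less in all 6 headed tlr4f/f. The heading LPS+ tlr4f/f may therefore be exchanged with the heading LPS- tlr4f/f-lysM-cre, which these counts cannot settle, and both readings are given. The difference LPS+ tlr4f/f minus LPS- tlr4f/f is the LPS effect in tlr4f/f as headed and the genotype difference without LPS after the exchange. LPS+ tlr4f/f-lysM-cre minus LPS- tlr4f/f-lysM-cre is the LPS effect in tlr4f/f-lysM-cre as headed and the genotype difference with LPS after the exchange. LPS- tlr4f/f-lysM-cre minus LPS- tlr4f/f is the genotype difference without LPS as headed and the LPS effect in tlr4f/f after the exchange. LPS+ tlr4f/f-lysM-cre minus LPS+ tlr4f/f is the genotype difference with LPS as headed and the LPS effect in tlr4f/f-lysM-cre after the exchange.

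The libraries held 33577087 to 56445268 counts over genes. The 6 macrophage markers (Adgre1, Csf1r, Cd68, Itgam, Fcgr1 and Mertk) were all detected and summed to 3913 to 9239 CPM per library. Markers of other cells were lower and uneven. The 6 fibroblast and stroma markers summed to 9.40 to 663 CPM in the LPS- tlr4f/f, 186 to 1472 CPM in the LPS- tlr4f/f-lysM-cre, 20.4 to 25.1 CPM in the LPS+ tlr4f/f and 44.9 to 56.8 CPM in the LPS+ tlr4f/f-lysM-cre libraries, with 0 of 6 absent from any group. The 6 megakaryocyte and platelet markers summed in the same order to 2.37 to 69.2, 89.4 to 261, 17.8 to 20.8 and 46.9 to 55.4 CPM, with Gp6 at 0 in every tlr4f/f library, and they include Pf4, which macrophages also express. The 6 endothelial markers summed to 4.17 to 16.1, 40.2 to 122, 4.69 to 7.71 and 10.3 to 16.5 CPM in that order, and they include Pecam1, likewise expressed by macrophages. Kdr alone made up most of these endothelial sums, with 47.0, 115 and 32.1 CPM in the LPS- tlr4f/f-lysM-cre libraries. Tek, Tie1 and Emcn were at 0.529 CPM or less in every library. The 6 neutrophil markers summed to 0.542 to 12.2, 13.04 to 164, 4.09 to 6.07 and 5.09 to 7.22 CPM, with Ly6g at 0 in 3 of the 4 groups. Mast cell and lymphocyte markers summed to at most 3.68 CPM in any library. Platelets, endothelium and stroma are sources of several genes described here, and the part of such cells in the differences was not tested. In bulk RNA, fewer cells of a type and less RNA per cell cannot be told apart.

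Promoter windows of 300 bases, from 250 before to 50 after the RefSeq start on GRCm38.p6, were held by the sequence table for 7 of the 9 genes, all but Thbd and Plau. They were searched on both strands for motifs of transcription factors (AP-1, NF-kB, CRE, C/EBP and PU.1) and of general promoter elements (GC box and TATAAA). F13a1 and Serpinb2 had 2 windows each. A gene was counted if any of its windows matched, so counts of genes are set against shares of single windows. The AP-1 motif TGACTCA occurred in the windows of F3, Procr and Plaur, 3 of 7 genes, against 5.20% of the 32817 windows in the table. It began 135 bases before the start in F3, where it lies on the opposite strand, 154 before it in Procr and 69 before it in Plaur. The NF-kB motif was searched as a single consensus pattern, so sites that depart from it were not counted. That pattern occurred in 0 of 7 genes, against 8.46% of all windows, and the CRE motif TGACGTCA in 0 of 7 genes, against 1.79%. The GC box GGGCGG was found in F3 and Plaur (35.6% of all windows). The C/EBP motif TTGCNNAA was found in Procr, Plaur and Serpinb2 (10.8% of all windows), the PU.1 motif GAGGAA in F7, F13a1 and Plaur (28.3%), and TATAAA in F3 and Serpinb2 (13.6%). The TATAAA match of F3 lay on the opposite strand, at base 44 counted from the start. That of the first Serpinb2 window began 29 bases before the start, on the strand of the gene. None of the AP-1 matches overlapped a match to another of these motifs. Printed here are the windows with the AP-1 motif and the first window of Serpinb2, the gene with the largest differences, 5′ to 3′ on the strand of the gene. Capitals mark TGACTCA or its reverse complement and, in Serpinb2, TATAAA on the strand of the gene. A match is a description of the letters and not a binding site. All 4 genes lie on the plus strand. The GENCODE annotation also holds a start of Procr upstream of the RefSeq start used here.
F3, chr3:121723287-121723586: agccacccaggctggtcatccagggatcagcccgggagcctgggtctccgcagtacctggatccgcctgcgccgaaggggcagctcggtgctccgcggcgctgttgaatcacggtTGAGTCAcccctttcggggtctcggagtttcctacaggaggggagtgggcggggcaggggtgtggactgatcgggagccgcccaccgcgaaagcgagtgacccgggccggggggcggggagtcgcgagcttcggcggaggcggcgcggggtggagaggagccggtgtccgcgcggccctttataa
Procr, chr2:155750967-155751266: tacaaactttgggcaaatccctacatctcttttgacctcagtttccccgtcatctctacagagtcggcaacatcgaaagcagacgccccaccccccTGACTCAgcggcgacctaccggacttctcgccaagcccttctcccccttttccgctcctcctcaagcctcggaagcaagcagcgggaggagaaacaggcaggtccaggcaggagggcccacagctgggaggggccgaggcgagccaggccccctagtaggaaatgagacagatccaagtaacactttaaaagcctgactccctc
Plaur, chr7:24462233-24462532: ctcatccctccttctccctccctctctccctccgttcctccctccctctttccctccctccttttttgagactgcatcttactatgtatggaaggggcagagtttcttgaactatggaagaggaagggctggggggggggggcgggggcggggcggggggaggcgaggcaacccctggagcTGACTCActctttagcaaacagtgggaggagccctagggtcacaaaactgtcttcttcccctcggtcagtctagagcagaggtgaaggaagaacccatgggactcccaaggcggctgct
Serpinb2, chr1:107511173-107511472: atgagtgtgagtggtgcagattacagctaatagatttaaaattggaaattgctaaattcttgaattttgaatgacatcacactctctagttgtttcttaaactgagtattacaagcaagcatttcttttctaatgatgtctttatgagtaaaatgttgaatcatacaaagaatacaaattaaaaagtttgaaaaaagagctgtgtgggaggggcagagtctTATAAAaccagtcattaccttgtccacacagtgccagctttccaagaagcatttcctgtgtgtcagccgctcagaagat

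Each gene was compared between groups with edgeR's quasi-likelihood test on the 6 libraries concerned, with Benjamini-Hochberg adjustment over all genes tested. Calls required more than a 2-fold difference together with an adjusted p below 0.01, the thresholds of the study. The level of each gene is given as CPM, and the differences between groups as log2 fold changes (log2 differences) with their standard errors (SE).

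**Figure D1:**
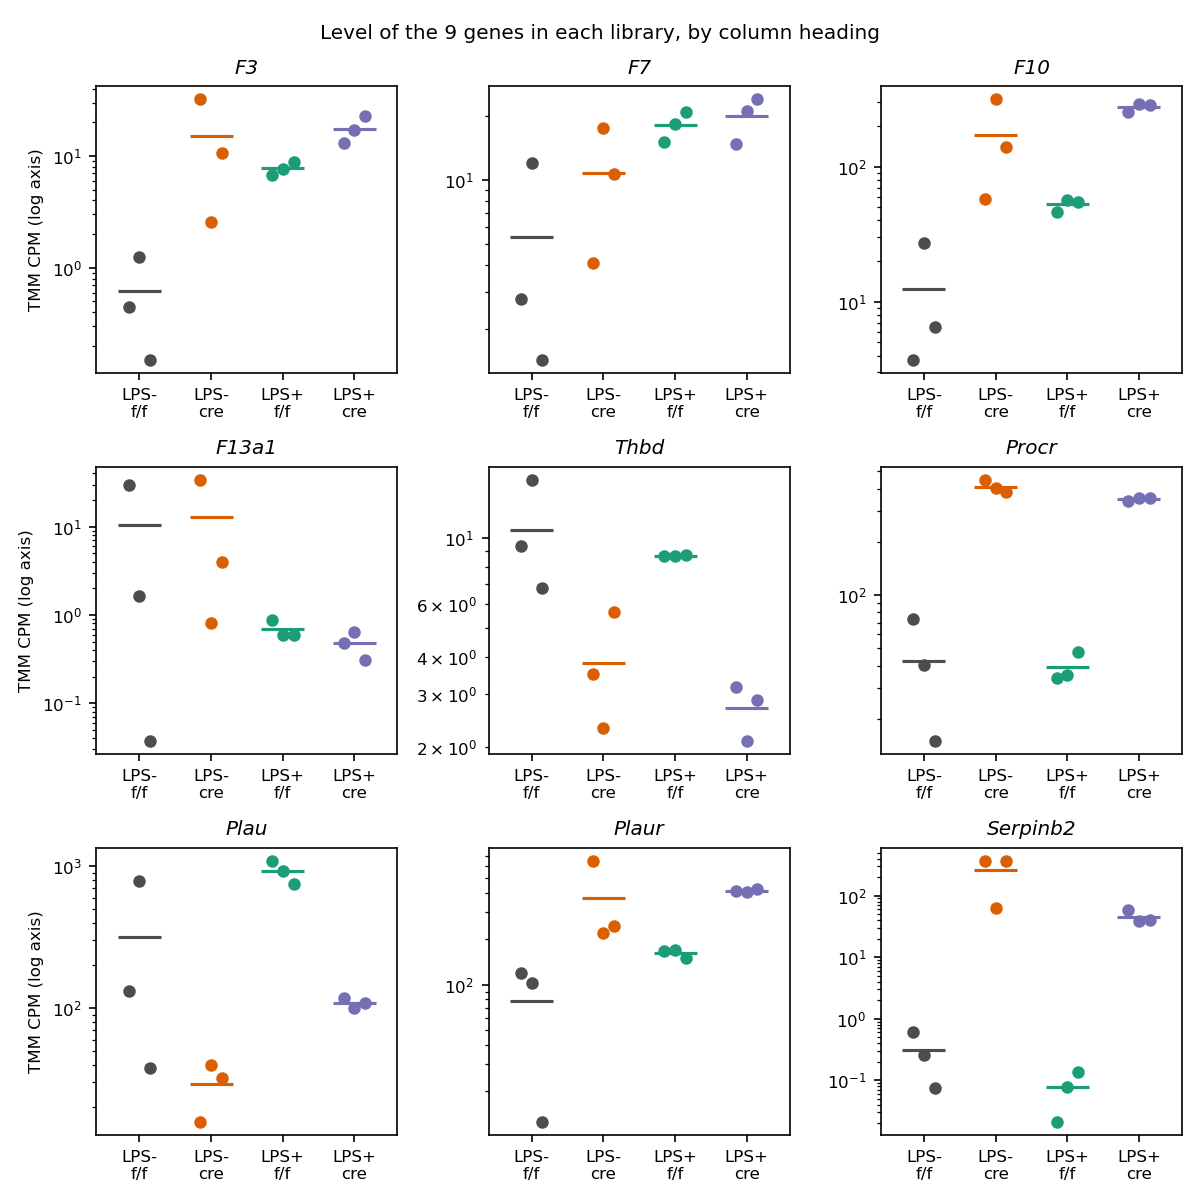
TMM CPM (log axis) of the 9 genes in the 12 libraries, grouped by column heading (f/f, tlr4f/f; cre, tlr4f/f-lysM-cre), with a point per library and a line at the mean of 3. Procr and Serpinb2 separate the 2 genotypes of the headings, with 342 CPM or more against 72.9 CPM or less for Procr and 39.2 CPM or more against 0.599 CPM or less for Serpinb2.

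Of the genes that start clotting, F3 (chromosome 3, 121723537 to 121735048, mm10) encodes tissue factor, the cell-surface trigger. It was at 0.445, 1.25 and 0.1495 CPM in the LPS- tlr4f/f libraries and at 32.4, 2.56 and 10.6 CPM in the LPS- tlr4f/f-lysM-cre libraries. It was at 6.73, 7.71 and 8.86 CPM in the LPS+ tlr4f/f and at 13.02, 17.0 and 22.6 CPM in the LPS+ tlr4f/f-lysM-cre libraries. All 3 LPS- tlr4f/f libraries lay below the other 9, and the LPS+ tlr4f/f libraries below the LPS+ tlr4f/f-lysM-cre libraries. F3 was called higher between those LPS+ groups, by a log2 difference of 1.17 (SE 0.211, adjusted p = 0.00193 in edgeR). This call was lost without LPS+ tlr4f/f replicate 2 (adjusted p = 0.0115) and without LPS+ tlr4f/f-lysM-cre replicate 3 (log2 fold change 0.94), and in a fit of all 12 libraries (adjusted p = 0.287). Against LPS- tlr4f/f, the log2 fold change was 3.67 for LPS+ tlr4f/f (SE 0.717, adjusted p = 0.0627 in edgeR) and 4.61 for LPS- tlr4f/f-lysM-cre (SE 1.17, adjusted p = 0.0238 in edgeR), neither of which passed. DESeq2 called both (adjusted p = 8.69e-07 and 2.65e-06). Without LPS- tlr4f/f replicate 2 they were 4.71 and 5.65, and without LPS- tlr4f/f-lysM-cre replicate 1 the second was 3.41, none of which was called.

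F7 and F10 are neighbours on chromosome 8 of mm10, at 13026034 to 13035809 and 13037308 to 13056676. Factor VII is the partner of tissue factor, made mainly by liver. F7 was at 2.77, 12.03 and 1.44 CPM in the LPS- tlr4f/f libraries, 4.08, 17.5 and 10.7 CPM in LPS- tlr4f/f-lysM-cre, 15.1, 18.2 and 20.8 CPM in LPS+ tlr4f/f, and 14.8, 21.0 and 23.9 CPM in LPS+ tlr4f/f-lysM-cre. The LPS- tlr4f/f libraries lay below both LPS+ groups and every other pair of groups overlapped. F7 was not called in any comparison, with log2 fold changes from 0.13 (LPS+ tlr4f/f-lysM-cre minus LPS+ tlr4f/f) to 1.76 (LPS+ tlr4f/f minus LPS- tlr4f/f, SE 0.757, adjusted p = 0.216 in edgeR). The latter was 3.12 without LPS- tlr4f/f replicate 2 (adjusted p = 0.0202), which was not called either.

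F10 encodes factor X, the protease on which both routes of clotting converge. It was at 3.71, 27.0 and 6.48 CPM in the LPS- tlr4f/f and 58.2, 317 and 139 CPM in the LPS- tlr4f/f-lysM-cre libraries. In the LPS+ tlr4f/f libraries it was at 46.5, 56.8 and 55.0 CPM, and in the LPS+ tlr4f/f-lysM-cre libraries at 254, 293 and 286 CPM. The order LPS- tlr4f/f, LPS+ tlr4f/f, then both tlr4f/f-lysM-cre groups held without overlap, and only the last 2 groups overlapped. F10 was called higher in LPS+ tlr4f/f-lysM-cre than in LPS+ tlr4f/f, by a log2 difference of 2.39 (SE 0.0851, adjusted p = 1.26e-09 in edgeR), but not in the fit of all 12 libraries (adjusted p = 0.0255). Between the LPS- groups the log2 fold change was 3.77 (SE 0.967, adjusted p = 0.0245 in edgeR) and between the tlr4f/f groups 2.11 (SE 0.722, adjusted p = 0.148 in edgeR). DESeq2 called both, with adjusted p of 4.74e-06 and 0.00875. Without LPS- tlr4f/f replicate 2, the difference between the tlr4f/f groups was 3.40 (adjusted p = 0.0118) and that between the LPS- groups 5.05 (adjusted p = 0.0156). Without LPS- tlr4f/f-lysM-cre replicate 2, the latter was 2.995 (adjusted p = 0.0653). The neighbouring F7 was not called between the LPS+ groups.

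F13a1 (chromosome 13, 36867178 to 37050244, minus strand), the fibrin cross-linking enzyme carried by monocytes, macrophages and platelets, had the widest relative spread of the 9 within each LPS- group. It was counted 1745, 101 and 2 times in the LPS- tlr4f/f libraries, which is 29.8, 1.62 and 0.0374 CPM. In the LPS- tlr4f/f-lysM-cre libraries it was at 33.7, 0.813 and 4.02 CPM. It was at 0.880, 0.589 and 0.585 CPM in the LPS+ tlr4f/f and 0.485, 0.634 and 0.311 CPM in the LPS+ tlr4f/f-lysM-cre libraries. Replicate 1 of each LPS- group stood far above the other 2, and the LPS- tlr4f/f range covered that of both LPS+ groups. F13a1 was not called in any comparison. The log2 fold change was -3.92 for LPS+ minus LPS- tlr4f/f (SE 1.83, adjusted p = 0.245 in edgeR) and -4.76 for LPS+ minus LPS- tlr4f/f-lysM-cre (SE 1.36, adjusted p = 0.0425 in edgeR), where all 3 LPS+ libraries lay below the LPS- libraries and DESeq2 called it (adjusted p = 0.00149). The 6 stroma markers summed to 663, 61.3 and 9.40 CPM in the LPS- tlr4f/f libraries, in the same order as F13a1, and to 967, 186 and 1472 CPM in the LPS- tlr4f/f-lysM-cre libraries, where the order differed. Their part in the level of F13a1 was not tested. Without replicate 1 of the LPS- group concerned, the first difference was -0.25 and the second -2.35. An antisense gene with exons overlapping F13a1, Gm30489, had 0 to 4 counts. Per the labels the libraries were made with an unstranded kit, so reads of Gm30489 cannot be told from those of F13a1 where exons overlap. The strand setting of the counting is not given in the sources used here.

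The anticoagulant receptors were called in opposite directions between the LPS+ groups. Thbd (chromosome 2, 148404466 to 148408188, minus strand) was at 9.36, 15.6 and 6.80 CPM in the LPS- tlr4f/f libraries and 8.67, 8.71 and 8.76 CPM in the LPS+ tlr4f/f libraries. In the LPS- tlr4f/f-lysM-cre libraries it was at 3.51, 2.31 and 5.67 CPM and in the LPS+ tlr4f/f-lysM-cre libraries at 3.17, 2.10 and 2.87 CPM. Every library headed tlr4f/f lay above every library headed tlr4f/f-lysM-cre. Thrombomodulin was called lower in LPS+ tlr4f/f-lysM-cre than in LPS+ tlr4f/f, with a log2 difference of -1.68 (SE 0.152, adjusted p = 9.11e-07 in edgeR). Between the LPS- groups it was -1.47 (SE 0.454, adjusted p = 0.0439 in edgeR), which was not called. The fit of all 12 libraries called it (adjusted p = 0.00502).

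Procr (chromosome 2, 155751117 to 155755471) was the other way round. The protein C receptor gene was at 72.9, 40.1 and 15.0 CPM in the LPS- tlr4f/f and 34.1, 35.3 and 47.8 CPM in the LPS+ tlr4f/f libraries. It was at 447, 405 and 380 CPM in the LPS- tlr4f/f-lysM-cre and 342, 352 and 354 CPM in the LPS+ tlr4f/f-lysM-cre libraries. The 6 libraries headed tlr4f/f-lysM-cre formed a narrow band well above the 6 headed tlr4f/f. Procr was called higher in LPS- tlr4f/f-lysM-cre than in LPS- tlr4f/f, by a log2 difference of 3.25 (SE 0.565, adjusted p = 0.00648 in edgeR), and in LPS+ tlr4f/f-lysM-cre than in LPS+ tlr4f/f, by 3.15 (SE 0.133, adjusted p = 5.03e-07 in edgeR). The first of these was lost without LPS- tlr4f/f replicate 2 (adjusted p = 0.0292) and without replicate 1, 2 or 3 of LPS- tlr4f/f-lysM-cre (adjusted p = 0.0211, 0.0206 and 0.0192 in edgeR). Over all genes, calls in that comparison fell from 2497 to 1038, 1161, 1161 and 1427 without these libraries in turn. The LPS+ and LPS- libraries headed tlr4f/f-lysM-cre did not overlap, but the log2 fold change was -0.23 (SE 0.109, adjusted p = 0.170 in edgeR).

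In the plasminogen branch, Plau (chromosome 14, 20836660 to 20843385) and its receptor Plaur (chromosome 7, 24462484 to 24475968) also parted. Urokinase Plau was at 131, 781 and 37.8 CPM in the LPS- tlr4f/f and 1086, 932 and 745 CPM in the LPS+ tlr4f/f libraries. It was at 15.8, 39.6 and 32.4 CPM in the LPS- tlr4f/f-lysM-cre and 118, 100 and 109 CPM in the LPS+ tlr4f/f-lysM-cre libraries. The LPS+ tlr4f/f libraries were the highest group, and LPS- tlr4f/f replicate 2 reached into their range. Plau was called lower in LPS+ tlr4f/f-lysM-cre than in LPS+ tlr4f/f, with a log2 difference of -3.09 (SE 0.1496, adjusted p = 2.17e-06 in edgeR), but not in the fit of all 12 libraries (adjusted p = 0.0177). It was called higher in LPS+ than in LPS- tlr4f/f-lysM-cre, by 1.91 (SE 0.313, adjusted p = 0.00798 in edgeR). That call was lost without LPS- tlr4f/f-lysM-cre replicate 3 (adjusted p = 0.0172), without replicate 1, 2 or 3 of LPS+ tlr4f/f-lysM-cre (0.0427, 0.0388 and 0.0423), in the fit of all 12 libraries (0.105), with the replicate number as a block (0.0215) and with counts summed over transcripts (0.0120). Over all genes, calls in this comparison fell from 865 to 4, 7 and 15 without those LPS+ libraries, 212 with the block and 691 with summed transcripts. They rose to 1178 without that LPS- library and 1165 in the fit of all 12 libraries. Between the LPS- groups the log2 fold change of Plau was -3.45 (SE 1.11, adjusted p = 0.0504 in edgeR, called by DESeq2), and between the tlr4f/f groups 1.56 (SE 1.01, adjusted p = 0.383 in edgeR). Without LPS- tlr4f/f replicate 2, these values were -1.55 (adjusted p = 0.120) and 3.46 (adjusted p = 0.0437), neither of them called.

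Plaur, the receptor that holds urokinase at the cell surface, was at 120, 102 and 12.5 CPM in the LPS- tlr4f/f and 166, 168 and 149 CPM in the LPS+ tlr4f/f libraries. It was at 647, 219 and 242 CPM in the LPS- tlr4f/f-lysM-cre and 412, 405 and 425 CPM in the LPS+ tlr4f/f-lysM-cre libraries. The 6 libraries headed tlr4f/f lay below the other 6, and the LPS- tlr4f/f below the LPS+ tlr4f/f libraries. It was called higher in LPS+ tlr4f/f-lysM-cre than in LPS+ tlr4f/f, by a log2 difference of 1.36 (SE 0.0584, adjusted p = 9.21e-10 in edgeR), but not in the fit of all 12 libraries (adjusted p = 0.139). Between the LPS- groups it was 2.23 (SE 0.860, adjusted p = 0.0853 in edgeR), and DESeq2 called it (adjusted p = 0.00525). Without LPS- tlr4f/f-lysM-cre replicate 1 it was 1.57 (adjusted p = 0.226 in edgeR).

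Serpinb2 (chromosome 1, 107511423 to 107535478), the macrophage plasminogen activator inhibitor, had the largest differences of the 9. It was counted 35, 16 and 4 times in the LPS- tlr4f/f and 1, 3 and 8 times in the LPS+ tlr4f/f libraries, or 0.0210 to 0.599 CPM. It was counted 13605, 1977 and 11662 times in the LPS- tlr4f/f-lysM-cre libraries, which is 365, 61.8 and 363 CPM. In the LPS+ tlr4f/f-lysM-cre libraries, 2516, 1421 and 1783 counts gave 58.2, 39.2 and 39.6 CPM. The genotypes of the headings were far apart, and the LPS+ tlr4f/f-lysM-cre libraries lay below the LPS- ones. The log2 fold change was 9.71 for LPS- tlr4f/f-lysM-cre minus LPS- tlr4f/f (SE 1.14, adjusted p = 0.00188 in edgeR) and 9.05 for LPS+ tlr4f/f-lysM-cre minus LPS+ tlr4f/f (SE 0.352, adjusted p = 5.09e-07 in edgeR). Both sizes rest on few counts in the tlr4f/f groups. The first call was lost without LPS- tlr4f/f replicate 2 (adjusted p = 0.0121), where calls over all genes fell from 2497 to 1038. Between the tlr4f/f-lysM-cre groups the log2 fold change was -2.54 (SE 0.645, adjusted p = 0.0300 in edgeR), not called, though it was called without LPS- tlr4f/f-lysM-cre replicate 2 (log2 fold change -3.00, adjusted p = 0.00119) and by DESeq2. Between the tlr4f/f groups its counts were too low for a test. Its neighbour with overlapping exons, Serpinb10, had 0 to 4 counts.

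Counted by comparison in separate fits, most calls fell between the LPS+ groups, with 7 against 2 between the LPS- groups. In the fit of all 12 libraries the order was reversed, with 3 calls between the LPS+ and 6 between the LPS- groups. Over all genes, calls likewise went from 3161 to 2070 of 14540 between the LPS+ groups. Between the LPS- groups they went from 2497 to 4176 of 14635. LPS+ tlr4f/f-lysM-cre was higher than LPS+ tlr4f/f for F3, F10, Procr, Plaur and Serpinb2, 5 of 9 genes, against 10.8% of the 14540 genes tested, and lower for Thbd and Plau, 2 of 9, against 10.9%. F7 and F13a1 were not called. Read as headed, this is a genotype difference with LPS. RNA of tissue factor, factor X, the protein C receptor, the urokinase receptor and the urokinase inhibitor Serpinb2 stood higher in tlr4f/f-lysM-cre. RNA of thrombomodulin and urokinase stood lower. With the headings exchanged, the same values are the response of tlr4f/f-lysM-cre BMDMs to LPS, with 7 of 9 genes called.

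Between the LPS- groups, Procr and Serpinb2 were called higher in LPS- tlr4f/f-lysM-cre, 2 of 9 genes against 9.25% of 14635, and 0 of 9 were called lower against 7.81%. Thbd and Plau, the 2 genes below 0 in this edgeR comparison, had unadjusted p of 0.0156 and 0.0189, and DESeq2 called Plau lower. In all, 7 of 9 genes had an unadjusted p below 0.05, and DESeq2 called 6 (F3, F10, Procr, Plau, Plaur and Serpinb2) and limma voom 2. Over all 14635 genes, 7004 had such a p, and DESeq2 called 3992 and limma voom 2694. Read as headed, this comparison is the genotype difference without LPS. With the headings exchanged, it is the LPS response of tlr4f/f BMDMs. The median log2 fold change was 2.23 over the 9 genes and -0.08 over all genes tested here, and 1.17 and -0.02 between the LPS+ groups. These comparisons share no library.

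Between LPS+ and LPS- tlr4f/f-lysM-cre, Plau was called higher, 1 of 9 genes against 2.42% of 14234, and 0 of 9 were called lower against 3.65%. Of the genes below 0, F13a1 and Serpinb2 had an unadjusted p below 0.05, and DESeq2 called both and limma voom neither. Over all 14234 genes, in either direction, 5741 had such a p, and DESeq2 called 2002 and limma voom 992. Read as headed, Plau rose with LPS in tlr4f/f-lysM-cre BMDMs. With the headings exchanged, with LPS Plau was higher in tlr4f/f-lysM-cre than in tlr4f/f, while Procr (log2 fold change -0.23), F3 (0.20, SE 0.780) and Plaur (0.17, SE 0.415) had values near 0 and none of these 3 was called. Without LPS- tlr4f/f-lysM-cre replicate 1, F3 was at 1.40 and Plaur at 0.83. F7 (0.91), F10 (0.72) and Thbd (-0.50) were not called either, with adjusted p of 0.203, 0.353 and 0.368 in edgeR.

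Between LPS+ and LPS- tlr4f/f, edgeR called 0 of the 8 genes tested, higher or lower, as it did for 0.00% of 14701 genes in the higher and 0.00% in the lower direction. Of the 8 genes, 2 had an unadjusted p below 0.05 (F3 and F10), DESeq2 called the same 2 and limma voom called 0. Over all 14701 genes, 3624 had such a p, and DESeq2 called 467 and limma voom 54. Thbd (log2 fold change -0.26, SE 0.2996), Procr (-0.11, SE 0.531) and Plaur (1.06, SE 0.727) had adjusted p of 0.636, 0.922 and 0.410 in edgeR. Read as headed, this is the LPS response of tlr4f/f BMDMs. With the headings exchanged, it is the genotype difference without LPS.

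**Figure D2:**
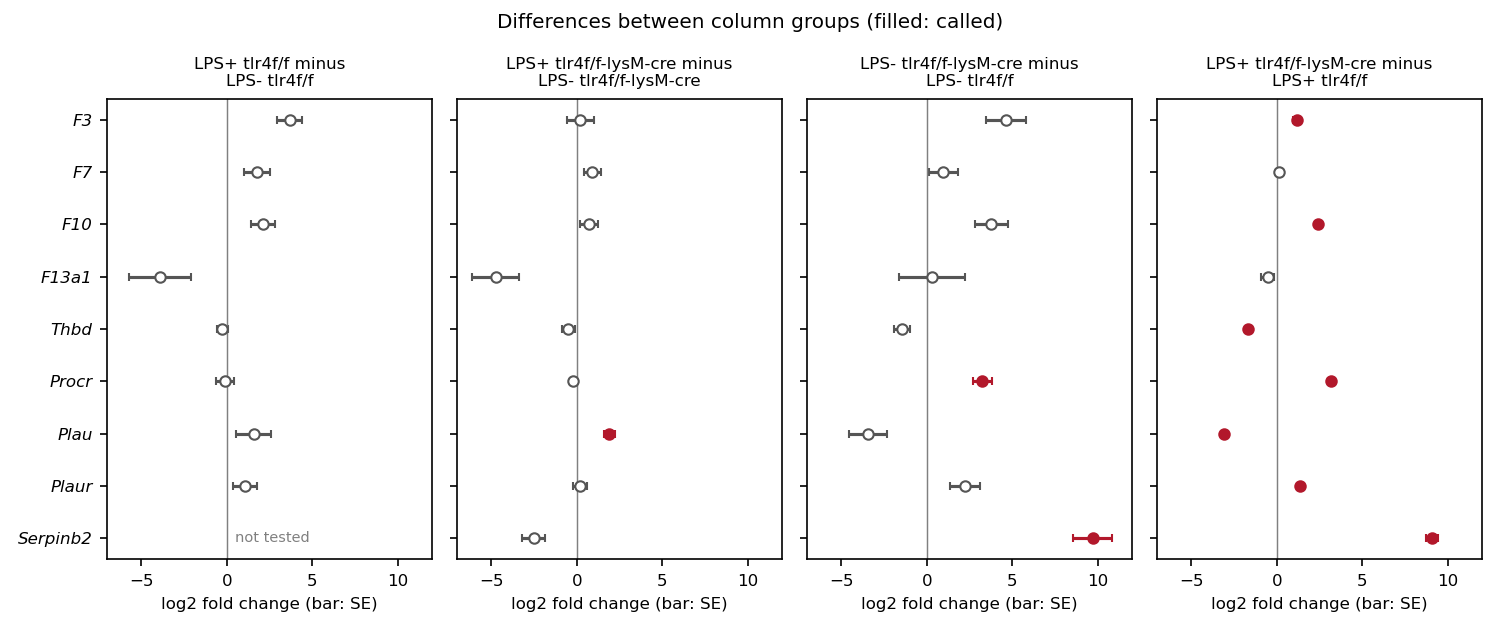
Log2 fold changes of the 9 genes in the 4 differences between column groups, with bars of 1 standard error from edgeR and filled red points for called genes. The difference between the LPS+ groups holds 7 called genes, and the one between the tlr4f/f groups none.

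Whether the LPS effect differed between the genotypes was tested over all 12 libraries, and this contrast is the same under either reading of the headings. EdgeR called 0 of 9 genes, against 0.659% of 15775 genes called higher and 0.380% called lower. F3 was nearest, with -3.43 on the log2 scale (SE 1.14, unadjusted p = 0.0126, adjusted p = 0.101 in edgeR), the only one of the 9 with an unadjusted p below 0.05. DESeq2 called it (log2 -3.54, adjusted p = 0.00817) and limma voom called 0. Over all 15775 genes, 3706 had an unadjusted p below 0.05, and DESeq2 called 657 and limma voom 179. For the other 8 of the 9 genes the values ran from -1.39 (F10) to 0.36 (Plau), with adjusted p of 0.429 or more in edgeR.

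Spread between libraries was uneven. The highest library was above the lowest by a median of 8.36 times over the 9 genes in LPS- tlr4f/f and 4.28 times in LPS- tlr4f/f-lysM-cre, against 1.38 times in LPS+ tlr4f/f and 1.48 times in LPS+ tlr4f/f-lysM-cre. Over the genes with a count in all 3 libraries, the medians were 1.53, 1.62, 1.17 and 1.18 times in the same order. Thbd varied least in LPS+ tlr4f/f (1.01 times), and Procr least in LPS- tlr4f/f-lysM-cre (1.17 times) and in LPS+ tlr4f/f-lysM-cre (1.04 times).

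Levels were set against each other per transcript length, as CPM per kilobase. In LPS+ tlr4f/f, Plau led at 393 ± 73.0 (SD, n = 3), followed by Plaur at 95.1 ± 6.04, Procr at 26.0 ± 5.05, F10 at 19.6 ± 2.04, F7 at 9.74 ± 1.54, F3 at 4.14 ± 0.570, Thbd at 2.34 ± 0.0115, F13a1 at 0.177 ± 0.0436 and Serpinb2 at 0.0394 ± 0.0293. No neighbours in this order overlapped. In LPS+ tlr4f/f-lysM-cre the order was Plaur at 245 ± 5.99 CPM per kilobase, Procr at 232 ± 4.28, F10 at 103 ± 7.67, Plau at 46.4 ± 3.70, Serpinb2 at 22.9 ± 5.44, F7 at 10.7 ± 2.52, F3 at 9.35 ± 2.57, Thbd at 0.729 ± 0.149 and F13a1 at 0.123 ± 0.0417, where only F7 and F3 overlapped. Urokinase thus stood at rank 1 in LPS+ tlr4f/f and rank 4 in LPS+ tlr4f/f-lysM-cre, and its inhibitor Serpinb2 at ranks 9 and 5. In LPS- tlr4f/f-lysM-cre, Procr led at 273 ± 22.3 CPM per kilobase, ahead of Plaur at 218 ± 142 and Serpinb2 at 132 ± 87.6, and only F10 and Plau did not overlap as neighbours. In LPS- tlr4f/f, Plau led at 135 ± 173 CPM per kilobase and Serpinb2 was last at 0.156 ± 0.134. All neighbours overlapped there, so the order of neighbours does not exceed the spread. Plau, Plaur and Procr, at 7.40 or more in each library, still lay above F7, Thbd, F3 and Serpinb2, at 6.49 or less.

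**Figure D3:**
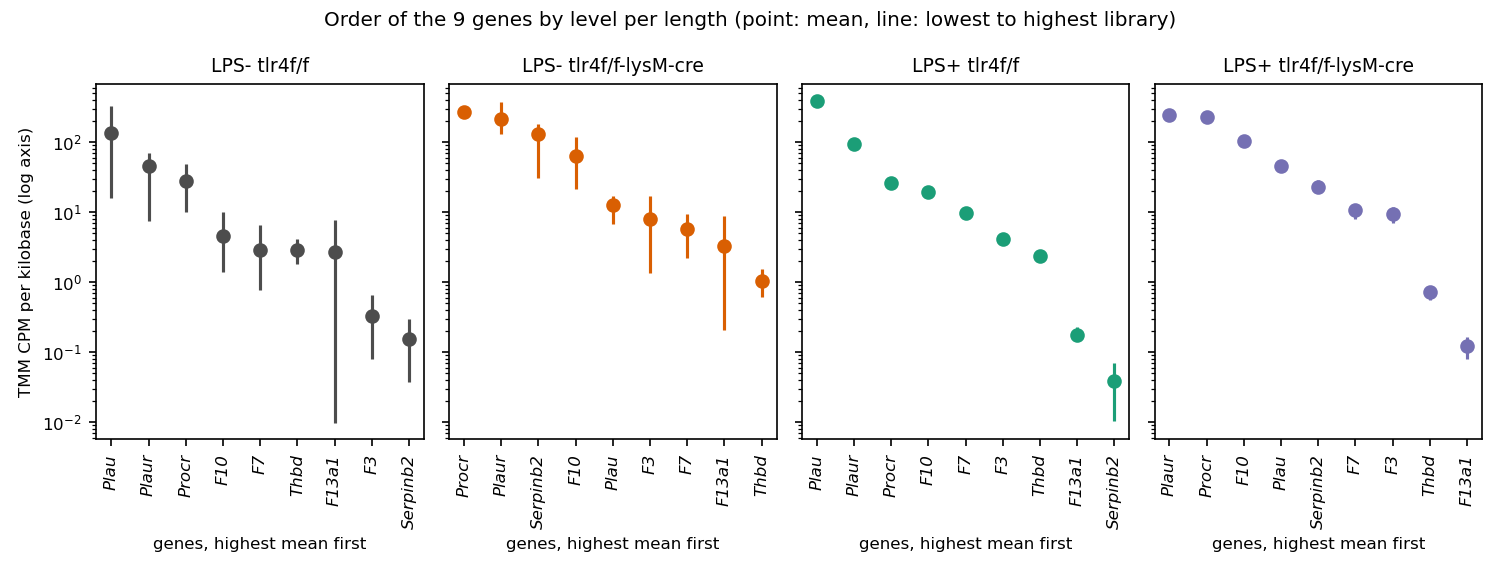
CPM per kilobase (log axis) of the 9 genes in each column group, sorted by mean, with points at the mean of 3 libraries and lines from the lowest to the highest library. Plau leads both tlr4f/f panels and Serpinb2 is last in both, at 0.156 and 0.0394.

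The wider system was followed with 46 further genes in 6 lists, of coagulation factors and fibrinogen, anticoagulants, the vitamin K cycle with factor V and VIII transport, plasminogen activation, plasminogen inhibitors and clearance, and protease-activated receptors. Between the LPS+ groups, 23 were high enough to be tested, and F9 was called higher in LPS+ tlr4f/f-lysM-cre and F2rl3 lower, 1 of 23 each against 10.8% and 10.9% of all genes. Between the tlr4f/f-lysM-cre groups, Proz and F2rl2 were called higher with the LPS heading, 2 of 24 tested against 2.42% of all genes, and 0 were called lower against 3.65%. Of these 24 genes, 9 had an unadjusted p below 0.05, DESeq2 called 7 and limma voom 3, against 5741, 2002 and 992 of all 14234 genes. EdgeR called 0 of 22 between the tlr4f/f groups (8 with an unadjusted p below 0.05, 2 by DESeq2, 0 by limma voom), 0 of 21 between the LPS- groups (7, 3 and 0) and 0 of 25 for the difference in LPS effect (2, 0 and 0). Over all genes, the same 4 numbers were 0, 3624, 467 and 54 of 14701 between the tlr4f/f groups. They were 2497, 7004, 3992 and 2694 of 14635 between the LPS- groups. For the difference in LPS effect they were 164, 3706, 657 and 179 of 15775. The median log2 fold change of the tested genes was -0.15 between the LPS+ groups, 0.06 between the tlr4f/f-lysM-cre groups, 0.21 between the LPS- groups and 0.32 between the tlr4f/f groups, against -0.02, 0.03, -0.08 and -0.03 over all genes.

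Among coagulation factors, F9, the factor IX that activates factor X, was at 0.872 to 1.14 CPM in LPS- tlr4f/f, 2.05 to 6.35 CPM in LPS- tlr4f/f-lysM-cre, 1.43 to 2.13 CPM in LPS+ tlr4f/f and 4.24 to 6.63 CPM in LPS+ tlr4f/f-lysM-cre. Its log2 fold change between the LPS+ groups was 1.55 (SE 0.212, adjusted p = 4.02e-05 in edgeR), in the direction of F10. Of the anticoagulants, Proz, the protein Z cofactor in factor X inhibition, was at 2.16, 2.81 and 4.92 CPM in LPS- tlr4f/f, 1.18, 1.53 and 0.965 CPM in LPS- tlr4f/f-lysM-cre, 7.54, 8.35 and 9.53 CPM in LPS+ tlr4f/f and 5.16, 6.84 and 6.44 CPM in LPS+ tlr4f/f-lysM-cre. Both LPS+ groups lay above both LPS- groups. The call between the tlr4f/f-lysM-cre groups was 2.33 on the log2 scale (SE 0.253, adjusted p = 0.00248 in edgeR), and it was lost without any 1 of the LPS+ tlr4f/f-lysM-cre libraries (adjusted p = 0.0188 to 0.0245). Leaving out each of these libraries took calls over all genes in that comparison from 865 to 4, 7 and 15.

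Of the thrombin and protease receptors, F2rl2 (PAR3) was counted 3, 32 and 4 times in LPS- tlr4f/f, 2, 5 and 6 times in LPS- tlr4f/f-lysM-cre, 282, 195 and 180 times in LPS+ tlr4f/f and 128, 101 and 91 times in LPS+ tlr4f/f-lysM-cre. Every LPS+ library exceeded every LPS- library. Its log2 fold change between the tlr4f/f-lysM-cre groups was 4.29 (SE 0.484, adjusted p = 0.00274 in edgeR), lost without any 1 of the LPS+ tlr4f/f-lysM-cre libraries (adjusted p = 0.0203 to 0.0245), and between the tlr4f/f groups 4.44 (SE 0.888, adjusted p = 0.0635 in edgeR, called by DESeq2). Without each of those LPS+ tlr4f/f-lysM-cre libraries, calls over all genes fell from 865 to 4, 7 and 15. F2rl3 (PAR4) was sparse, with 35, 19 and 22 counts in LPS+ tlr4f/f against 2, 4 and 1 in LPS+ tlr4f/f-lysM-cre, a log2 difference of -3.17 (SE 0.608, adjusted p = 0.000616 in edgeR). Proz and F2rl2 thus ordered the libraries by the LPS of the headings, as Tlr4 and Lyz2 did, and F10, Procr, Serpinb2, Plaur and Thbd by their genotype, as Il1b did.

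**Figure D4:**
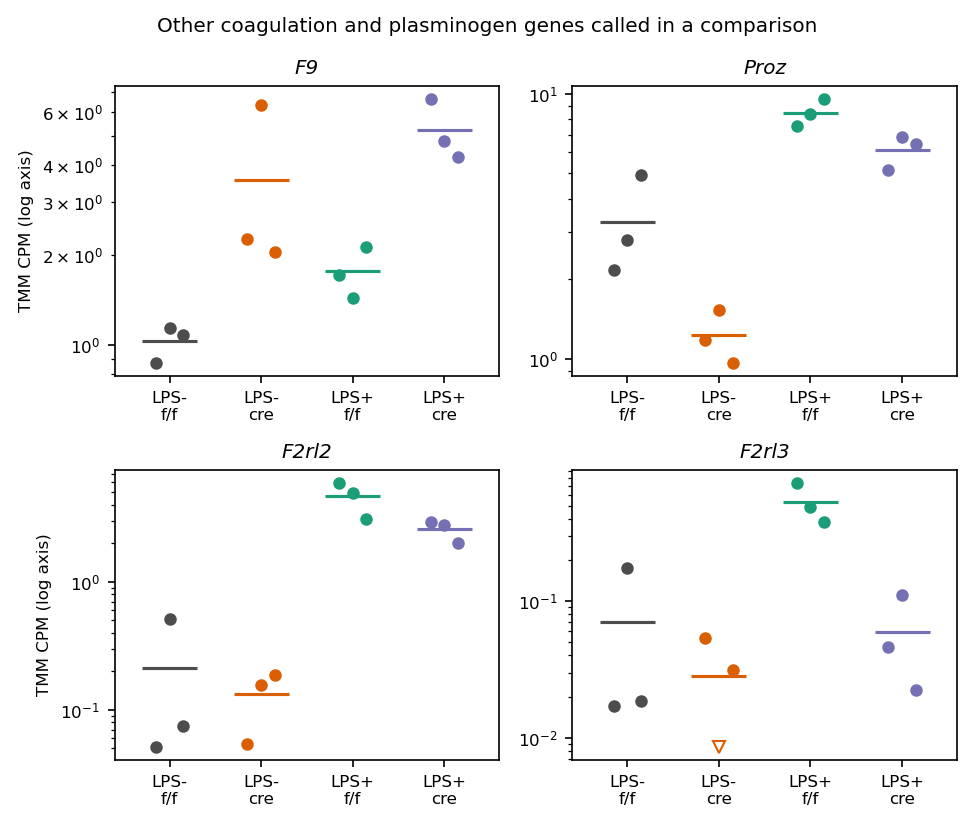
TMM CPM (log axis) of the 4 further genes called in a comparison, with a point per library, a line at the mean of 3 and an open triangle below the scale for the 1 library in which F2rl3 was counted 0 times. For Proz and F2rl2 the LPS+ libraries stand above the LPS- libraries.

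The genes also varied together. Over the 12 libraries, which share groups and depth, Pearson's r of log2 CPM was 0.962 for Procr with Serpinb2 and 0.887 for F3 with Plaur. It was -0.810 for Thbd with Procr and -0.756 for Plau with Serpinb2. With group means removed, r was 0.641 and 0.733 for the first pairs but 0.286 and 0.0789 for the last, so these opposite patterns lay mainly between groups. Within groups the closest pairs were F7 with Plau at 0.899, F13a1 with Plaur at 0.897 and F7 with F10 at 0.879. Spread was wider in the LPS- than in the LPS+ groups, and these values were not computed without the LPS- libraries. LPS- tlr4f/f replicate 2 was the highest of its group for F7, F10 and Plau. Replicate 1 of each LPS- group was the highest for F13a1 and Plaur. Among the 15774 other genes compared, the pattern most like each gene was that of Rasgrp1 for Procr (r 0.997), Irak3 for Serpinb2 (0.991), Rasa1 for Plau (0.980), Mmp12 for F7 (0.979), Mtm1 for F10 (0.978), Acat3 for Plaur (0.972), Ttpal for F3 (0.971), Osbpl1a for Thbd (0.969) and Pdlim4 for F13a1 (0.958).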

How the data were processed

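PolyA RNA of 12 BMDM libraries was sequenced, and per the labels the libraries were rRNA-depleted and made with an unstranded kit. The submitters' notes name Trimmomatic 0.36, FastQC, HISAT2, HTSeq and mm10. The authors deposited read counts per transcript without normalization (115140 transcripts). For each of 43131 genes the transcript with the highest total was kept, since transcripts of a gene share reads. Libraries were grouped by their column headings. The genes and lists were chosen with earlier results of these data known. Named genes are the 9 members, Tlr4, Lyz2 and Il1b as checks of the headings, list genes called in a comparison, and for each member the gene with the highest r. Vwf, Lrp1 and Anxa2 of the lists were named after their values were seen, and markers and overlapping genes serve as checks. A gene of the lists is not reported here.

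The test was run with edgeR 4.0.16 under R 4.3.3 (filterByExpr, TMM, robust quasi-likelihood test, Benjamini-Hochberg adjustment), and checked on simulated counts. CPM used TMM factors over the genes kept in any group, and r used a prior count of 2. Depth was 33577087 to 56445268 counts, so genes with a handful of counts carry large errors. Alternatives were DESeq2 1.42.0, limma 3.58.1 voom, RLE factors, other filters, an adjusted p below 0.05, a joint fit of all 12 libraries, a block by replicate number, counts summed over transcripts, each library left out, and exchanged headings. Gene positions are from GENCODE on mm10 and promoter sequences from RefSeq.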

Additional observations from a re-analysis of the deposited data

How the results depend on the processing

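Calls among the 9 genes moved with the tool, the libraries and the headings. For LPS in tlr4f/f, the count of 0 became 2 with DESeq2. For LPS in tlr4f/f-lysM-cre, the count of 1 became 3 at an adjusted p below 0.05 and with DESeq2, 0 in the fit of all 12 libraries, with the replicate block and with summed transcripts, and 0 to 2 with a library left out. For the genotypes without LPS, the count of 2 became 5 at an adjusted p below 0.05. DESeq2 and the fit of all 12 libraries gave 6, and a library left out gave 0 to 2. It became 1 with no filter beyond 1 count or at least 10 counts in every library. The latter filter removed Serpinb2, counted 4 times in LPS- tlr4f/f replicate 3, before testing. Over all genes, these filters gave 2717 calls of 25264 and 2442 of 12031. At any fold, 5464 of 14635 genes had an adjusted p below 0.05 in edgeR for this comparison. For LPS in tlr4f/f-lysM-cre, 3804 of 14234 did. For the genotypes with LPS, 7 became 3 in the fit of all 12 libraries and stayed at 6 to 7 with a library left out. For the interaction, 0 became 1 with DESeq2. Over all genes, DESeq2 took the calls of the 5 comparisons, in this order, from 0, 865, 2497, 3161 and 164 to 467, 2002, 3992, 3196 and 657. The fit of all 12 libraries took the first 4 to 78, 1165, 4176 and 2070. With a library left out, calls over all genes ranged from 4 to 1178 for LPS in tlr4f/f-lysM-cre and 1038 to 1682 for the genotypes without LPS. With headings exchanged, the counts among the 9 genes were 2, 7, 0 and 1 for the first 4 comparisons. The replicate numbers were not treated as pairs: same-numbered libraries correlated in their deviations with r of -0.0379 to 0.472. The replicate block gave 0 calls among the 9 genes for LPS in either genotype, 3 and 7 for the genotypes without and with LPS, and 0 for the interaction. Over all genes it gave 0, 212, 2198, 3246 and 129 calls in that order.

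Signs that changed among the 9 genes were these, with Proz and F2rl2 added for the exchange. With headings exchanged, the LPS effect in tlr4f/f was 0.28 for F13a1, -3.45 for Plau, 3.25 for Procr and -1.43 for Proz. In tlr4f/f-lysM-cre it was -3.09 for Plau, 3.15 for Procr, 9.05 for Serpinb2, -0.47 for Proz and -0.85 for F2rl2. The genotype difference without LPS was then -3.92 for F13a1, 1.56 for Plau, -0.11 for Procr and 1.39 for Proz. With LPS it was 1.91 for Plau, -0.23 for Procr, -2.54 for Serpinb2, 2.33 for Proz and 4.29 for F2rl2. The replicate block gave 0.13 for Procr (LPS in tlr4f/f) and -0.067 for Plau (interaction), and limma voom 0.040 for Thbd (interaction). With a library left out, the LPS effect in tlr4f/f ranged from -0.51 to 0.54 for Procr and -0.50 to 0.13 for Thbd, and in tlr4f/f-lysM-cre from -0.29 to 1.40 for F3 and -0.10 to 0.83 for Plaur. The genotype difference ranged from -2.11 to 3.94 for F13a1 without LPS and -0.023 to 0.32 for F7 with LPS. The interaction ranged from -4.46 to 1.59 for F13a1, -1.55 to 0.89 for Plau, -0.74 to 0.30 for Procr, -1.49 to 0.15 for Serpinb2 and -0.61 to 0.16 for Thbd. Beyond the exchange, whose construction swaps the groups, the cause of these changes was not tested.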

Other observations

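Vwf, the von Willebrand factor gene of endothelium and megakaryocytes, was counted 812 to 6601 times per library. It was at 32.6, 73.8 and 73.7 CPM in LPS- tlr4f/f, 21.8, 44.5 and 28.3 CPM in LPS- tlr4f/f-lysM-cre, 102, 111 and 114 CPM in LPS+ tlr4f/f and 72.3, 81.8 and 76.5 CPM in LPS+ tlr4f/f-lysM-cre. The LPS+ tlr4f/f libraries were the highest in Vwf. The sums of the endothelial and of the megakaryocyte markers were highest in LPS- tlr4f/f-lysM-cre, and most of each sum there was Kdr or Pf4. Not every marker followed the sums. Gp1ba had its lowest mean there (0.310 CPM) and its highest in LPS+ tlr4f/f (1.35 CPM). Tek, Tie1 and Emcn, all sparse, had their highest means in LPS+ groups. The other markers of these lists had their highest mean in LPS- tlr4f/f-lysM-cre. The part of such cells in the level of Vwf was not tested. Between the LPS+ groups its log2 fold change was -0.51 (standard error 0.0625, adjusted p = 1.5e-05 in edgeR), below the fold required for a call. Between the tlr4f/f-lysM-cre groups it was 1.30 (standard error 0.244, adjusted p = 0.0119 in edgeR), which was not called in edgeR and was called by DESeq2. Vwf was named after its values were seen.

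Lrp1, the receptor that clears urokinase bound to its inhibitors, was at 1738 to 4674 CPM per library, and Anxa2, a plasminogen-binding surface protein, at 482 to 814 CPM. Lrp1 had a log2 fold change of -0.55 between the LPS+ groups (standard error 0.0743, adjusted p = 3.58e-05 in edgeR), also too small for a call. Both were named after their values were seen.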
